A study of Homo sapiens with 6 samples.

Results

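YAP1, WWTR1 (the gene of TAZ), their DNA-binding partner TEAD1 and 7 genes known as their targets or feedback regulators (CCN1, CCN2, ANKRD1, AXL, AMOTL2, LATS2 and AJUBA) were followed in U251 glioblastoma cells that overexpress PD-L1. These 10 genes were chosen by name from the Hippo pathway, with no threshold on their values. They and the gene lists read beside them were chosen with earlier results of these data known. All 10 had an Ensembl ID among the 57773 IDs of the count table, and all 10 passed the filter on low counts. U251 is a long-established line from a human glioblastoma. CD274 is the gene of PD-L1, a membrane protein that binds PD-1 on T cells. Cells carried a lentiviral PD-L1 construct (PD-L1 dishes) or the vector control (Vector dishes) as stable lines, at passage 5 to 10, and poly-A RNA was sequenced from 3 dishes per group, 12 h after passage in DMEM with 10% serum. The labels name 1 stable line per group, so a p-value measures the spread between dishes and not between transductions. No source used here gives the density at plating or harvest.

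The Hippo pathway is a kinase cascade in which STK3 and STK4 activate LATS1 and LATS2. These phosphorylate YAP and TAZ, which are then held in the cytoplasm or degraded. When the cascade is off, YAP and TAZ enter the nucleus and bind TEAD factors. They then raise transcription of genes for matrix-associated signals and growth, and of genes that in turn restrain YAP and TAZ. Crowding of cells and loss of cytoskeletal tension are textbook conditions that keep YAP and TAZ out of the nucleus, and in glioblastoma both proteins are linked to the mesenchymal state. Transcript counts do not measure where the proteins are or how they are phosphorylated.

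TEAD factors recognise GGAATG, so that motif was searched on both strands (CATTCC marks the reverse strand) in the promoter windows that RefSeq gives for these genes on GRCh38.p14, from 250 bases before to 50 after a transcript start. Windows were at hand for 8 of the 10 genes and not for CCN1 or TEAD1, whose promoters were therefore not searched. There were 12 windows in all because WWTR1, AXL, AMOTL2 and AJUBA have more than 1 start. GGAATG occurred in 7 of the 12, against 14.03% of all 35116 windows in the same table. The AP-1 motif TGANTCA, held by 7.71% of all windows, occurred in the ANKRD1 window alone, and no window held a CArG box, the element bound by SRF (1.29% of all windows). No match overlapped another. The 250 upstream bases of 4 genes are shown 5′ to 3′ along the transcribed strand, with matches in capitals: CCN2 and ANKRD1 held the most matches and did not pass the test between groups, and AXL and AMOTL2 held 1 match each and did. They lie at chr6:131951373-131951622 (CCN2, minus strand), chr10:90921088-90921337 (ANKRD1, minus strand), chr19:41226505-41226754 (AXL, second of 2 starts, plus strand) and chr3:134374448-134374697 (AMOTL2, second of 2 starts, minus strand).
CCN2: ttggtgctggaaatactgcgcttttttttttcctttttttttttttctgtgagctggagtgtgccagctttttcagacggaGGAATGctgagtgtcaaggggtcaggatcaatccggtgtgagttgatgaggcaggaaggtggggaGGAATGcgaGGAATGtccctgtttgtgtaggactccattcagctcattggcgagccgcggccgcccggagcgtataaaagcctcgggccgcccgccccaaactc
ANKRD1: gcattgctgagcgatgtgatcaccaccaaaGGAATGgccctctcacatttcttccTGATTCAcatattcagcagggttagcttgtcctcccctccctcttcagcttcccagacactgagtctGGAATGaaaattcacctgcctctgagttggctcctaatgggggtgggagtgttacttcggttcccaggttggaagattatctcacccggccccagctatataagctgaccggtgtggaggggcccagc
AXL: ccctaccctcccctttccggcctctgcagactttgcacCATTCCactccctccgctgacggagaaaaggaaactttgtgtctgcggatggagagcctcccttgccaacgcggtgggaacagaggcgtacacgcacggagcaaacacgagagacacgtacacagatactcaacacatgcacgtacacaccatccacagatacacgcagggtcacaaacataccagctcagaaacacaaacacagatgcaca
AMOTL2: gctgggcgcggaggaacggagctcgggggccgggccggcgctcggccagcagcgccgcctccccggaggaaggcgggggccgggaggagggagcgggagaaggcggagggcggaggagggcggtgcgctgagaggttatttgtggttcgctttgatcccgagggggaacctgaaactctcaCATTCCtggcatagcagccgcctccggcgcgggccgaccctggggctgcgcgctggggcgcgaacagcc

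In the CCN2 window the 3 TEAD matches began 169, 104 and 95 bases before the start. In ANKRD1 they began 220 and 128 bases before it, with the AP-1 match 195 bases before it. The single matches began 212 bases before the second AXL start and 69 bases before the second AMOTL2 start. YAP1 itself held a match 162 bases before its start, AJUBA 59 bases before its second start and LATS2 at base 10 of the transcript. Neither WWTR1 window held GGAATG, nor did the first AXL, AMOTL2 and AJUBA starts. YAP1, LATS2 and AJUBA, with 1 match each, did not pass the test between groups, and WWTR1, with 0 matches, did. Which start these cells use was not tested, nor was any relation between matches and the test between groups. All matches are occurrences of letters in short windows, with no measurement of binding behind them.

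**Figure D1:**
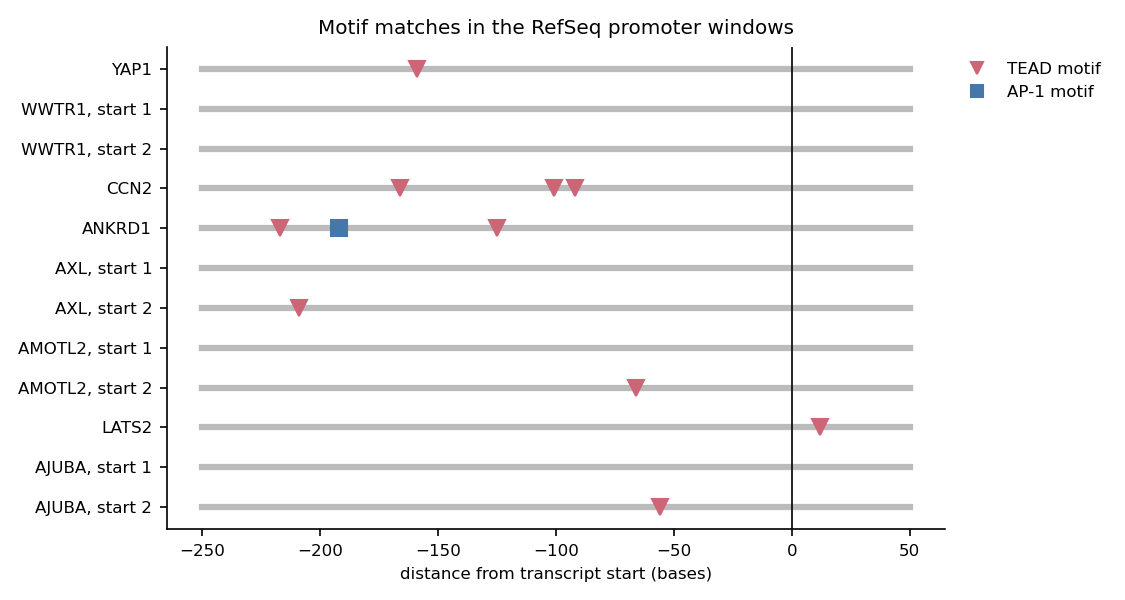
Positions of TEAD (GGAATG) and AP-1 (TGANTCA) motif matches in each RefSeq promoter window, with the distance from the transcript start in bases on the x axis and 1 row per window. The CCN2 row holds 3 TEAD matches and the ANKRD1 row 2, with 1 AP-1 match.

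Total counts ranged from 15678989 to 22270509 per dish. On the TMM-adjusted library sizes, 3 counts, the limit that a count of 0 allows, equal 0.138 to 0.185 CPM (library-scaled counts). CD274 was at 1309, 1356 and 1234 CPM in PD-L1 dishes 1 to 3 and at 1.56, 3.47 and 2.21 CPM in the Vector dishes. All CPM were scaled by TMM-adjusted library sizes. PD-L1 dish 3 stood apart: its counts differed from those of PD-L1 dishes 1 and 2 by 16.1 and 14.8 in chi-square per degree of freedom, against 3.02 between dishes 1 and 2 and 5.25 to 10.1 among the Vector dishes, so results are given with and without it. The glioma markers VIM, NES and SOX2 were present, at 391, 74.9 and 56.0 CPM in Vector dishes, while S100B (0.85 CPM) and GFAP (3.18 CPM) were low. The summed level of 6 astrocyte and glioma markers was 299 to 396 CPM in PD-L1 against 515 to 591 CPM in Vector dishes, and VIM made up most of it. Of these markers 5 of 6 were called lower, beside 7.20% of all tested genes, so they moved with the results below. Summed immune markers (5 genes) were at 2.46 to 2.77 CPM in PD-L1 against 3.03 to 4.41 CPM in Vector dishes. AIF1 was called lower on few reads, 4, 1 and 0 in PD-L1 dishes 1 to 3 against 14, 18 and 12 in Vector dishes. Summed endothelial markers (3 genes with an ID) were at 2.28 to 2.89 and 1.61 to 2.26 CPM, neuronal markers (4) at 11.4 to 13.4 and 13.0 to 13.2 CPM, oligodendrocyte markers (4, with MBP lower) at 5.57 to 6.64 and 7.92 to 9.68 CPM, and epithelial markers (3) at 5.42 to 29.7 and 12.3 to 38.9 CPM. Their part in the results was not tested.

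Of the 10 genes, AXL, CCN1, AMOTL2 and WWTR1 fell in PD-L1 dishes and 0 rose, at a Benjamini-Hochberg false discovery rate (FDR) of 0.05 in edgeR's quasi-likelihood test over 15818 genes. Over all tested genes 7.20% were called lower, 1.55% higher and 8.75% in either direction. Without PD-L1 dish 3 these shares were 13.8% lower and 7.81% higher, and with an offset for GC content and length 9.50% and 3.86%. The receptor AXL fell most, to 47.8% of its Vector level, and the matricellular gene CCN1 to 66.3%. DESeq2 called 4 of the 10 genes lower and 0 higher, against 1168 lower and 246 higher of all 15818 tested genes. At an unadjusted p under 0.05 in edgeR, 7 of the 10 genes were lower and 0 higher. The share of all tested genes with an unadjusted p under 0.05 was not computed. CCN2 and ANKRD1, which like CCN1 are used as standard readouts of YAP and TAZ activity, did not pass, nor did YAP1, TEAD1, LATS2 and AJUBA. In 6 of the 10 genes every PD-L1 dish lay below every Vector dish, as in 15.5% of all tested genes, and in 4 the groups overlapped. The median log2 fold change (PD-L1 minus Vector) of the 10 genes was -0.26, beside 0.02 over all tested genes. Of the 10 values 9 were below 0, beside 7343 of the 15818 over all tested genes. In bulk RNA, fewer cells expressing a gene and less of its RNA per cell cannot be told apart.

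**Figure D2:**
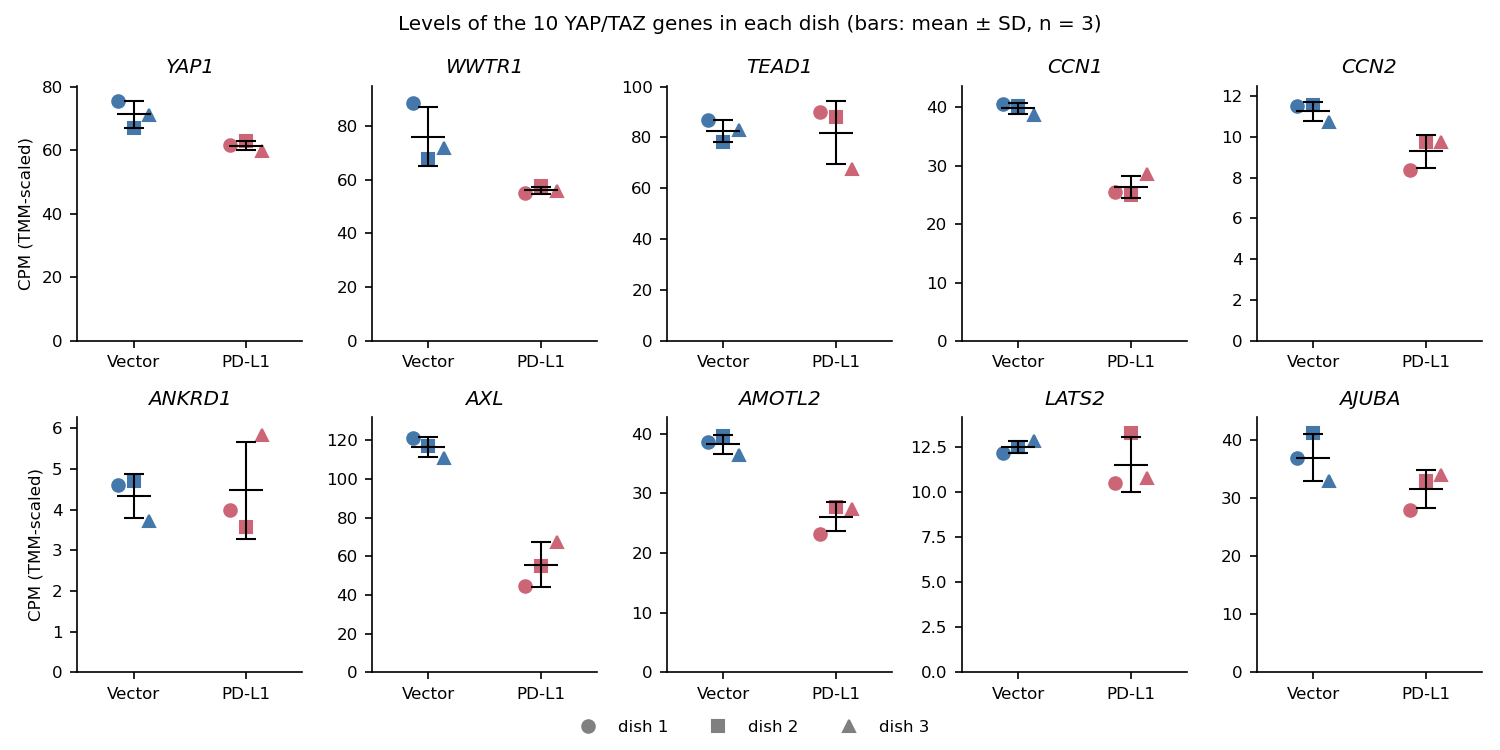
CPM (y axis, TMM-scaled) of each of the 10 genes in Vector and PD-L1 dishes, with 1 symbol per dish and bars for mean ± SD (n = 3). All PD-L1 dishes lie below all Vector dishes for YAP1, WWTR1, CCN1, CCN2, AXL and AMOTL2, and the groups overlap for TEAD1, ANKRD1, LATS2 and AJUBA.

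YAP1 (ENSG00000137693) encodes YAP, a protein with WW domains and no DNA-binding domain of its own. It was at 61.6, 62.7 and 59.8 CPM in PD-L1 dishes 1 to 3 and at 75.6, 67.1 and 71.2 CPM in Vector dishes 1 to 3. The groups did not overlap, but the nearest dishes were 62.7 and 67.1 CPM. The log2 fold change was -0.22 ± 0.08 (SE; 95% confidence interval -0.38 to -0.050) and edgeR gave an adjusted p of 0.103. When GC content and transcript length were corrected by an offset, YAP1 passed (log2 fold change -0.24, adjusted p = 0.0208). YAP1 overlaps an unnamed antisense gene with 0 reads in these dishes, and the library kit does not mark strand.

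WWTR1 (ENSG00000018408) encodes TAZ, the paralogue of YAP. It was at 54.8, 57.6 and 55.7 CPM in PD-L1 dishes and at 88.6, 67.8 and 71.7 CPM in Vector dishes. The Vector dishes spread more widely (SD 11.1 CPM) than the PD-L1 dishes (SD 1.38 CPM), with Vector dish 1 the highest. WWTR1 was 1.36-fold lower, a log2 fold change of -0.44 ± 0.10 (edgeR adjusted p = 0.0124). The call ended when Vector dish 1 was left out (-0.32, adjusted p = 0.0690), and it held without PD-L1 dish 3 (-0.44, adjusted p = 0.00481) but not when the GC and length offset was added to that fit (-0.56, adjusted p = 0.109). Its antisense gene WWTR1-AS1, which shares 795 bases of exon with it, had 49 reads over all 6 dishes.

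The ratio of WWTR1 to YAP1 CPM was 0.890, 0.917 and 0.932 in PD-L1 dishes 1 to 3 and 1.17, 1.01 and 1.01 in the Vector dishes. Every PD-L1 dish was below every Vector dish. The mean ratio was 0.913 ± 0.021 against 1.06 ± 0.094 (SD, n = 3 each), and an exact two-sided permutation test gave p = 0.1, which is the lowest p possible with 3 dishes per group. This ratio was chosen after the values were seen.

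TEAD1 (ENSG00000187079) encodes the transcription factor that carries YAP and TAZ to DNA. It was at 89.8, 88.1 and 67.7 CPM in PD-L1 dishes and at 86.8, 78.1 and 82.8 CPM in Vector dishes. PD-L1 dish 3 was the lowest of the 6, while PD-L1 dishes 1 and 2 were the highest. The log2 fold change was -0.01 ± 0.10 (95% confidence interval -0.23 to 0.20, adjusted p = 0.961 in edgeR), and it was 0.11 without PD-L1 dish 3 (adjusted p = 0.298).

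Among secreted targets, CCN1 (ENSG00000142871, older symbol CYR61) encodes a matricellular ligand of integrins. Its level was 25.6, 25.0 and 28.6 CPM in PD-L1 dishes 1 to 3 against 40.5, 40.2 and 38.7 CPM in Vector dishes 1 to 3. The gap between the groups was wider than the spread within either. CCN1 was 1.51-fold lower (log2 fold change -0.59 ± 0.09), with an adjusted p of 0.000933 in edgeR, and it was called in all 6 fits that left out 1 dish.

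CCN2 (ENSG00000118523, older symbol CTGF) encodes a related matricellular protein and has the promoter with 3 TEAD matches shown above. It was at 8.34, 9.74 and 9.74 CPM in PD-L1 dishes and at 11.5, 11.5 and 10.7 CPM in Vector dishes. The groups did not overlap, and the gap between them was smaller than the spread of the PD-L1 dishes. The log2 fold change was -0.28 ± 0.12 (95% confidence interval -0.54 to -0.026), with an adjusted p of 0.169 in edgeR and 0.0785 without PD-L1 dish 3. Whether CCN1 and CCN2 differ in their change was not tested.

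ANKRD1 (ENSG00000148677) encodes an ankyrin-repeat protein of muscle and stretched cells. It was the least abundant of the 10 in CPM, at 4.001, 3.57 and 5.84 CPM in PD-L1 dishes 1 to 3 and at 4.60, 4.69 and 3.71 CPM in Vector dishes. PD-L1 dish 3 was the highest of all 6 and PD-L1 dish 2 the lowest. The log2 fold change was 0.04 ± 0.19, with a 95% confidence interval of -0.37 to 0.46 and an adjusted p of 0.921 in edgeR. Without PD-L1 dish 3 it was -0.20 (adjusted p = 0.499).

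AXL (ENSG00000167601) encodes a receptor tyrosine kinase for the ligand GAS6, linked to invasion in glioma. It was at 44.5, 55.3 and 67.5 CPM in PD-L1 dishes 1 to 3 and at 121, 117 and 111 CPM in Vector dishes 1 to 3. The highest PD-L1 dish was below the lowest Vector dish, but the PD-L1 dishes also varied more, with a coefficient of variation of 20.6% against 4.48%. AXL was 2.09-fold lower, a log2 fold change of -1.06 ± 0.12 (edgeR adjusted p = 0.000172). Without PD-L1 dish 3 the log2 fold change was -1.23, and under the GC and length offset AXL stood at -1.01 (adjusted p = 0.00436).

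Of the feedback and scaffold genes, AMOTL2 (ENSG00000114019), an angiomotin-family protein that binds YAP and TAZ at junctions and actin and restrains them, was at 23.3, 27.7 and 27.4 CPM in PD-L1 dishes and at 38.6, 39.7 and 36.5 CPM in Vector dishes. All PD-L1 dishes were below the Vector range. AMOTL2 was 1.47-fold lower (log2 fold change -0.55 ± 0.09, adjusted p = 0.00232 in edgeR) and was called in all 6 fits that left out 1 dish.

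LATS2 (ENSG00000150457), the YAP kinase that is itself a YAP target, was at 10.5, 13.3 and 10.8 CPM in PD-L1 dishes and at 12.2, 12.5 and 12.9 CPM in Vector dishes, with PD-L1 dish 2 above all Vector dishes. Its log2 fold change was -0.12 (95% confidence interval -0.38 to 0.14, adjusted p = 0.577 in edgeR). AJUBA (ENSG00000129474), a LIM-domain protein that binds and inhibits LATS kinases at junctions, was at 27.9, 32.97 and 34.0 CPM in PD-L1 dishes and at 36.9, 41.2 and 32.999 CPM in Vector dishes. Vector dish 3 lay within the PD-L1 range. AJUBA had a log2 fold change of -0.23 (95% confidence interval -0.45 to -0.0056, adjusted p = 0.199 in edgeR) and passed without PD-L1 dish 3 (-0.29, adjusted p = 0.0421).

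**Figure D3:**
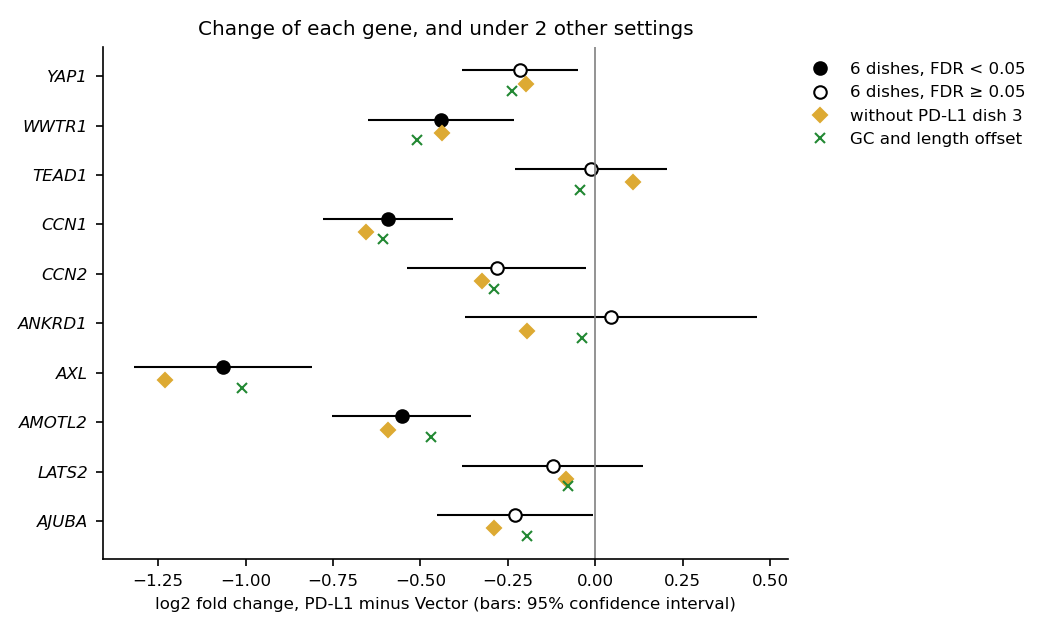
Log2 fold change (x axis, PD-L1 minus Vector) of each gene with its 95% confidence interval over 6 dishes, filled where the FDR was under 0.05. Diamonds leave out PD-L1 dish 3 and crosses add the GC and length offset. AXL lies farthest from 0 in each setting, and TEAD1 and ANKRD1 change sign between settings.

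As a percentage of the Vector mean, the median over the 10 genes was 74.8, 84.5 and 83.0% in PD-L1 dishes 1 to 3 and 103, 101 and 95.3% in Vector dishes 1 to 3. PD-L1 dish 1 was the lowest, and in it AXL stood at 38.2% and AMOTL2 at 60.8% of the Vector mean. AXL stood at 57.9% in PD-L1 dish 3. CCN1 kept a narrower range, 62.7 to 71.8% over the 3 PD-L1 dishes, and WWTR1 ranged from 72.2 to 75.7%. In PD-L1 dish 3 ANKRD1 was at 135% and TEAD1 at 82.1%, each standing apart from the other PD-L1 dishes, in which ANKRD1 was at 92.3 and 82.4% and TEAD1 at 109 and 107%.

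Levels of different genes were compared as CPM per kb of exon. Exon length was the merged length of all exons that GENCODE 29 gives for a gene, over all its transcripts. Which transcripts these cells express was not tested, so the order below rests on that length. In Vector dishes AXL was the most abundant of the 10, at 22.6 ± 1.01 CPM per kb (mean ± SD, n = 3), followed by CCN1 at 16.2 ± 0.39 and YAP1 at 11.3 ± 0.67 CPM per kb. WWTR1 (9.04 ± 1.31) and TEAD1 (8.03 ± 0.42 CPM per kb) overlapped in their dish values, as did AMOTL2 (6.39 ± 0.27) and AJUBA (6.19 ± 0.68 CPM per kb). CCN2 followed at 4.81 ± 0.20 CPM per kb, and LATS2 and ANKRD1 overlapped at 2.25 ± 0.060 and 2.19 ± 0.27 CPM per kb. The dishes of all other neighbours in that order did not overlap, though the nearest YAP1 and WWTR1 dishes were 10.7 and 10.5 CPM per kb. In PD-L1 dishes AXL and CCN1 overlapped, at 10.8 ± 2.23 and 10.7 ± 0.79 CPM per kb. There TEAD1 (7.96 ± 1.19 CPM per kb) had a higher mean than WWTR1 (6.66 ± 0.16 CPM per kb), with overlapping dishes. AJUBA (5.29 ± 0.54 CPM per kb) stood above AMOTL2 (4.36 ± 0.41 CPM per kb) without overlap.

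**Figure D4:**
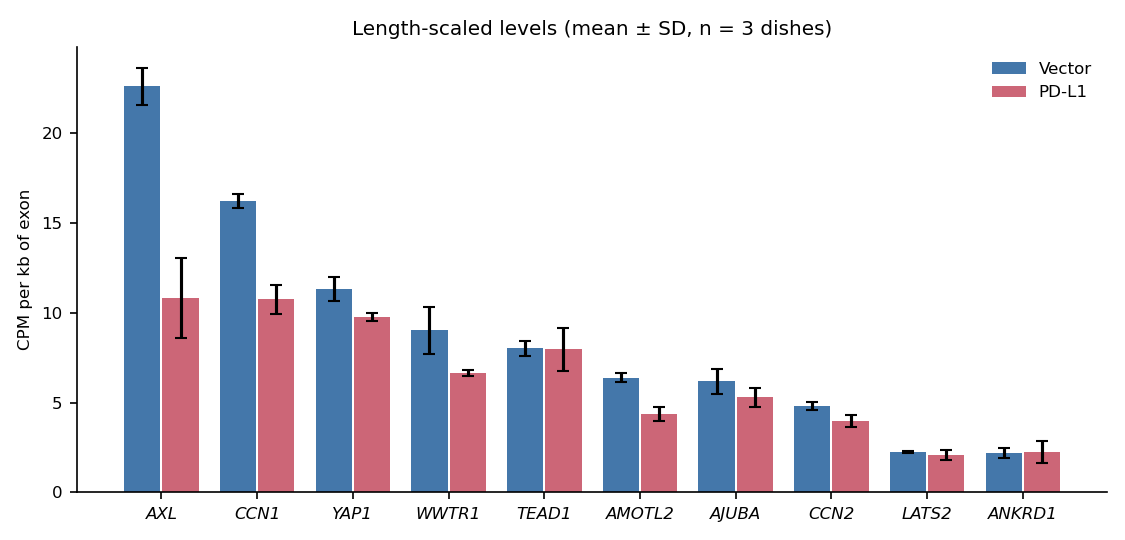
Length-scaled level (y axis, CPM per kb of exon; bars are means and error bars SD of 3 dishes) of the 10 genes, ordered by their Vector level. AXL leads in Vector dishes at 22.6 CPM per kb and is level with CCN1 in PD-L1 dishes at 10.8 and 10.7 CPM per kb.

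Of 16 further genes known as YAP and TAZ targets 8 were lower and 0 higher, beside 7.20% lower and 1.55% higher over all tested genes. This list, like those below, was chosen with earlier results of these data known, so its counts describe the genes and test nothing. The median log2 fold change of the 16 genes was -0.49, beside 0.02 over all tested genes. In 10 of them, as in 15.5% of all tested genes, each PD-L1 dish lay below each Vector dish. MYOF, the membrane-repair protein myoferlin, fell from 158 ± 7.01 to 83.2 ± 3.25 CPM (SD, n = 3 each; adjusted p = 1.67e-05 in edgeR). NT5E, the ecto-nucleotidase CD73, was 2.06-fold lower and varied between 19.7 and 29.3 CPM in PD-L1 dishes. The matrix protein gene CCDC80 was 1.75-fold lower, the ligand gene TGFB2 1.64-fold and CRIM1, a transmembrane binder of bone morphogenetic proteins, 1.44-fold. RBMS3, an RNA-binding protein, was 1.46-fold lower, and F3 (tissue factor) and ARHGEF17 were each 1.38-fold lower. MYOF, CRIM1, CCDC80, NT5E and TGFB2 were called in all 6 fits that left out 1 dish, F3, ARHGEF17 and RBMS3 in 2, 3 and 1 of them. With the GC and length offset CCDC80 (adjusted p = 0.0628) and ARHGEF17 (adjusted p = 0.0548) did not pass, and 6 genes of the list were lower, while 10 were lower without PD-L1 dish 3 (13.8% of all tested genes).

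The most abundant uncalled genes of that list were IGFBP3 and GADD45A. IGFBP3, a binding protein of insulin-like growth factors, was at 114, 125 and 184 CPM in PD-L1 dishes and at 358, 160 and 296 CPM in Vector dishes. Vector dish 2 lay within the PD-L1 range, and the log2 fold change was -0.94 ± 0.36 (adjusted p = 0.202 in edgeR). GADD45A, a stress-response gene, was at 123 ± 12.6 CPM in PD-L1 against 118 ± 3.32 CPM in Vector dishes.

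In the kinase cascade upstream of YAP and TAZ 2 of 14 genes (14.3%, beside 7.20% of all tested genes) fell and 0 rose (median log2 fold change 0.03). MAP4K4, a kinase that can phosphorylate LATS, was 1.30-fold lower (194 ± 7.95 to 148 ± 7.46 CPM, adjusted p = 0.00526 in edgeR). NF2, the scaffold merlin that recruits LATS to the membrane, was 1.21-fold lower and was called in 1 of the 6 fits that left out 1 dish. MOB1A, the LATS cofactor, was at 152 ± 7.95 and 148 ± 4.70 CPM, and the kinase TAOK2 at 139 ± 1.98 and 144 ± 5.82 CPM, in PD-L1 and Vector dishes. Without PD-L1 dish 3 the list had 3 lower and 4 higher genes, where all tested genes had 13.8% lower and 7.81% higher. With the GC and length offset it had 3 lower and 1 higher, and with both changes 3 lower and 2 higher (all tested genes: 13.6% and 7.17%).

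In the list of other TEAD factors and their cofactors 0 of 6 tested genes were called in edgeR and 0 in DESeq2. Over all tested genes edgeR called 7.20% lower and 1.55% higher, and DESeq2 1168 lower and 246 higher of 15818. In this list 1 gene had an unadjusted p under 0.05 in edgeR, and that share over all tested genes was not computed. TEAD4 was at 43.3 ± 6.00 and 44.9 ± 0.49 CPM, and VGLL4, a competitor of YAP for TEAD, at 38.5 ± 2.56 and 41.8 ± 4.06 CPM, in PD-L1 and Vector dishes. VGLL1 had 0 reads in all 6 dishes. Leaving out PD-L1 dish 3 gave 1 lower gene in this list, beside 13.8% of all tested genes.

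Among 11 junction and LIM-domain regulators 1 fell (9.09%, near the 7.20% over all tested genes) and 0 rose (median log2 fold change -0.09). FAT1, an atypical cadherin that feeds into the Hippo cascade, was 1.55-fold lower (118 ± 21.9 to 76.1 ± 6.47 CPM, adjusted p = 0.00477 in edgeR) but did not pass without PD-L1 dish 3 (adjusted p = 0.0760). AMOT, the founding member of the AMOTL2 family, was at 338, 337 and 206 CPM in PD-L1 dishes 1 to 3 and at 190, 168 and 229 CPM in Vector dishes. PD-L1 dish 3 lay within the Vector range, so AMOT did not pass over 6 dishes (log2 fold change 0.58 ± 0.20, adjusted p = 0.116), and without that dish it passed (adjusted p = 0.00111). The list then had 0 lower and 2 higher genes, beside 13.8% lower and 7.81% higher over all tested genes. AMOTL1, another paralogue, was at 92.9 ± 5.89 CPM in PD-L1 against 98.4 ± 5.68 CPM in Vector dishes.

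CCN1 and CCN2 are also known targets of SRF and its actin-sensing cofactors MRTF, so genes of that pathway were read beside them. Of 12 tested genes 6 fell, beside 7.20% of all tested genes, and 0 rose (median log2 fold change -0.40). TGFB1I1, a focal-adhesion adaptor, was 1.71-fold lower, and ACTB (beta-actin) and FHL2, a LIM-domain cofactor, were 1.502-fold and 1.5004-fold lower. TPM1 (tropomyosin) was 1.40-fold lower, and VCL (vinculin) and FLNA (filamin A) were 1.33-fold and 1.31-fold lower. FLNA did not pass with the GC and length offset (adjusted p = 0.0524). In the fit without PD-L1 dish 3, 9 of the 12 were lower (13.8% of all tested genes). FLNA and TGFB1I1 were called in 3 and 4 of the 6 fits that left out 1 dish. ACTG1 was at 2951 ± 371 and 3487 ± 121 CPM, and SRF itself at 133.8 ± 2.52 and 133.8 ± 9.52 CPM, in PD-L1 and Vector dishes. MYL9 had 0 reads in all 6 dishes. ACTB and ACTG1 are alike in coding sequence and have many pseudogene copies, so some of their reads may be assigned wrongly or not counted. VCL shares exon sequence with AP3M1 on the opposite strand, and VGLL4 with ATG7, and the reads of such partners cannot be separated.

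Over the 69 tested genes of the lists outside the 10, edgeR called 17 lower (24.6%) and 0 higher. Over all tested genes the shares were 7.20% and 1.55%. DESeq2 called 16 of the 69 lower and 0 higher, against 1168 lower and 246 higher of all 15818 tested genes. At an unadjusted p under 0.05 in edgeR, 27 of the 69 were lower and 3 higher. That share over all tested genes was not computed. Of 10 proliferation genes 0 were called in edgeR, 0 in DESeq2, and 2 had an unadjusted p under 0.05. TOP2A was at 654 ± 17.995 and 622 ± 34.0 CPM and MCM2 at 396.5 ± 11.9 and 422 ± 3.81 CPM, in PD-L1 and Vector dishes. The median log2 fold change of this list was -0.03. With the GC and length offset 1 gene was lower (MKI67, adjusted p = 0.0188 in edgeR), beside 9.50% of all tested genes. Without PD-L1 dish 3 another 1 was lower (MCM5, adjusted p = 0.0378), beside 13.8%.

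**Figure D5:**
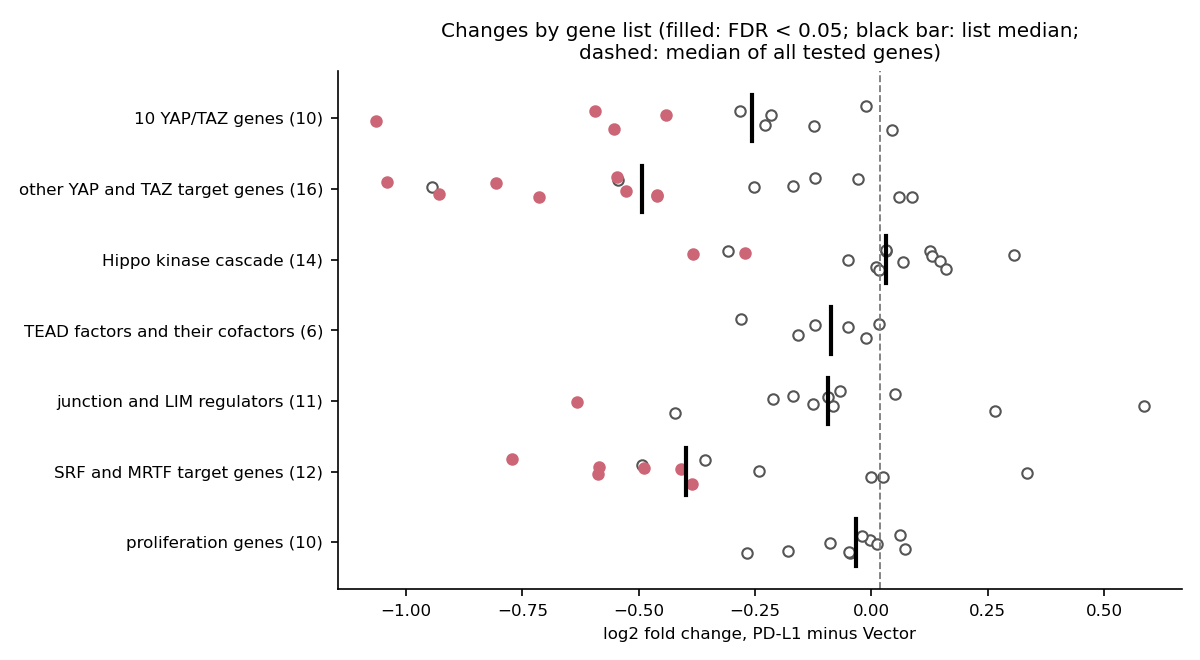
Log2 fold change (x axis, PD-L1 minus Vector) of every tested gene by list, with the number tested in brackets, filled where the FDR was under 0.05 and with the list median as a black bar. The 2 lists of YAP and TAZ targets and the SRF list have medians of -0.26, -0.49 and -0.40, and the dashed line marks the median of all tested genes at 0.02. The lists were chosen with earlier results of these data known.

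Over the 6 dishes the log2 CPM of some genes followed those of CCN1 and YAP1 closely. Among 11394 genes with a mean of at least 5 CPM, those with the highest Pearson correlation to CCN1 included TM4SF1, AIFM2, LPXN and CAV1, with r from 0.994 to 0.997. CAV1, the coat protein of caveolae, fell from 318 ± 19.1 to 174 ± 24.5 CPM, and TM4SF1, a tetraspan membrane protein, from 32.8 ± 1.54 to 19.5 ± 2.18 CPM. The 5 nearest to YAP1 were FAT1, PLXNB3, ARHGAP35, COL8A1 and TENT5A, with r from 0.993 to 0.998. ARHGAP35 was at 88.5 ± 4.402 CPM in PD-L1 against 115 ± 11.4 CPM in Vector dishes. These correlations describe 6 dishes in 2 groups that share their libraries, so a difference between the groups alone raises r.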

How the data were processed

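The authors deposited raw read counts by Ensembl gene, and each of the 6 dishes has its own column. Per the submitters' processing notes, the build was hg19 and the tools named are HTSeq 0.6.0, STAR 2.5.1b and CASAVA 1.8. No source used here gives the annotation, the strand setting or any read filter, and the NEBNext Ultra kit named in the labels does not mark strand. The authors also deposited normalized counts (a signal scale). These equalled the raw counts divided by 1 factor per dish, and were used only for those factors.

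Groups and dish numbers came from the sample titles. Raw counts of all 6 dishes were tested in R 4.3.3 with edgeR 4.0.16 (filterByExpr, TMM, robust glmQLFit and glmQLFTest, no covariates), and p-values were adjusted by Benjamini-Hochberg over 15818 genes. Each standard error is the absolute fold change over the root of F. SD values are over 3 dishes. The script was tested on simulated counts. The depth per dish was 15678989 to 22270509 counts, and intervals cover the spread between dishes only.

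The text names the 10 genes, CD274, the fixed cell type markers, of each fixed list all called genes and the 2 most abundant uncalled tested genes, and the 5 genes most like CCN1 and YAP1, of which 1 is not reported here. The genes and lists were chosen with earlier results of these data known. Gene symbols were looked up in a name table (51996 IDs matched) and in GENCODE 29. GENCODE 29 (another build than the hg19 of the counts) served for names, lengths, GC content and overlaps. Overlaps were found from GENCODE 29 coordinates, which are not printed. Promoter sequences and their coordinates are RefSeq's, on GRCh38.p14. PECAM1 had no matching ID.

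Alternatives were other scaling factors, DESeq2 1.42.0, limma-voom (limma 3.58.1), other filters, the dish number as a block, a GC and transcript length offset (per dish, natural splines, 5 degrees of freedom; known for 97.6% of tested genes), leaving out each dish, and an FDR of 0.01. The offset without PD-L1 dish 3 was added after the data were seen. Figures were drawn with matplotlib 3.10.9.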

Additional observations from a re-analysis of the deposited data

How the results depend on the processing

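Among the 10 genes, the number called lower was 4 and lay between 3 and 5 under 18 alternatives, and the number higher was 0 in each. AXL, CCN1 and AMOTL2 were called lower in all 18, with log2 fold changes of -1.23 to -0.92, -0.66 to -0.55 and -0.60 to -0.47. WWTR1 was lower in all 18 but not called at an FDR of 0.01 (adjusted p = 0.0124), without Vector dish 1, or with the GC and length offset without PD-L1 dish 3. YAP1 was called only with that offset and no block, over 6 dishes and without PD-L1 dish 3 (adjusted p = 0.00544), and AJUBA only without PD-L1 dish 3. CCN2 and LATS2 were called in none and were below 0 in all 18. TEAD1 changed sign with upper-quartile factors (0.021), without PD-L1 dish 3 (0.11), without Vector dish 1 (0.02) and with the offset without PD-L1 dish 3 (0.0085). ANKRD1 changed sign with the offset (-0.038), with the offset and block (-0.055), without PD-L1 dish 3 (-0.20), without Vector dish 3 (-0.06) and with the offset without PD-L1 dish 3 (-0.27), and was not tested at a mean of at least 5 CPM. With 1 dish left out TEAD1 ran from -0.085 to 0.11 and ANKRD1 from -0.20 to 0.18. For these sign changes the cause was not tested.

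Of the 71 listed genes outside the 10, 17 were lower and 0 higher. At an FDR of 0.01, 11 were lower. With 1 dish left out 11 (without Vector dish 1) to 24 (without PD-L1 dish 3) were lower and 0 to 6 higher, the 6 without PD-L1 dish 3. The number higher was 1 with upper-quartile factors, 2 without a filter, 2 with the offset and 6 with the offset without PD-L1 dish 3. Over all tested genes 1139 were lower and 245 higher. With 1 dish left out there were 510 to 2241 lower and 35 to 1271 higher, the lowest without Vector dish 1 and the highest without PD-L1 dish 3, and without PD-L1 dish 1 or 2 there were 595 and 676 lower and 46 and 69 higher. Without Vector dish 2 or 3, 119 and 109 were higher. At an FDR of 0.01 there were 508 and 22, with the offset without PD-L1 dish 3 2206 and 1167, with the offset 1502 and 610, and with upper-quartile factors 1015 and 379. The cause of these differences was not tested.

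In the titles the dishes share only a number across groups. The correlations of their deviations from the group means were -0.21, -0.05 and -0.19 for numbers 1 to 3. For dishes of unlike number they ran from -0.08 to 0.23. Deviations within a group of 3 dishes cancel out, so these values cannot show whether dishes of 1 number were handled together. With the replicate number as a block the 10 genes gave 4 lower and 0 higher, with or without the offset, the listed genes 16 lower and 1 higher, and all genes 1209 lower and 238 higher. The least abundant of the 10, ANKRD1, had 58 to 109 counts per dish, and its confidence interval was -0.37 to 0.46 on the log2 scale. The part of depth in that width was not tested.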

Other observations

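Without PD-L1 dish 3, 6 of the 71 listed genes outside the 10 were called higher in edgeR, among them 4 of the kinase cascade that restrains YAP and TAZ. In the same fit 3 genes of that cascade (NF2, MAP4K4 and FRMD6) were called lower, beside 13.8% of all tested genes. Over all genes tested in that fit 7.81% were called higher, a share near that of the listed genes. The 6 genes called higher were chosen after their values were seen. LATS1, the paralogue of LATS2, was at 55.9, 60.8 and 44.1 CPM in PD-L1 dishes 1 to 3 and at 41.6, 43.0 and 45.4 CPM in Vector dishes. PD-L1 dish 3 lay within the Vector range. The LATS1 log2 fold change was 0.31 over 6 dishes (adjusted p = 0.0939), 0.43 without that dish (adjusted p = 0.000399), and LATS1 was called with the GC and length offset over 6 dishes (adjusted p = 0.0254). Under that offset STK4 (adjusted p = 0.203), MOB1B (0.935) and TAOK1 (0.958) did not pass, and with the offset added to the fit without PD-L1 dish 3 the cascade had 2 higher genes rather than 4. STK4, a kinase upstream of LATS, was at 105, 108 and 86.1 CPM in PD-L1 and 88.7, 91.5 and 93.8 CPM in Vector dishes, with PD-L1 dish 3 the lowest of the 6. Its adjusted p was 0.422 over 6 dishes and 0.0220 without that dish. MOB1B and TAOK1 likewise had their lowest value of the 6 dishes in PD-L1 dish 3, at 18.2 and 89.5 CPM, with adjusted p of 0.0291 and 0.0172 without it. The others were AMOT and PATJ, a cell-polarity scaffold. PATJ was at 37.1, 37.2 and 34.5 CPM in PD-L1 dishes 1 to 3 and at 28.5, 31.6 and 30.4 CPM in Vector dishes. Each PD-L1 dish, dish 3 included, lay above each Vector dish, as in 12.1% of all tested genes. The PATJ adjusted p in edgeR was 0.0686 over 6 dishes and 0.0134 without PD-L1 dish 3. With the GC and length offset over 6 dishes it was 0.0164.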
